A study of Rattus norvegicus with 12 samples.

Results

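The nuclear genes of mitochondrial oxidative phosphorylation were examined in the tissue of a rat bone defect that had been filled with 1 of 3 scaffolds or left without one. The members were all genes of the deposited table annotated with the pathway term "Oxidative phosphorylation", without the subunits of the vacuolar proton pump, which carry the same term. This gave 95 of the 22601 genes in the table, after 24 vacuolar pump genes were left out of 119. By gene name, 38 members belonged to complex I, 4 to complex II, 10 to complex III, 18 to complex IV and 15 to complex V, 4 were assembly factors of complex IV, and 6 stood outside the complexes. Ndufa4 and Ndufa4l2 were counted with complex I because of their names, although NDUFA4 is known in human cells as a subunit of complex IV.

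The inner mitochondrial membrane holds 4 electron transfer complexes, numbered I to IV, and the ATP synthase, complex V. Complexes I and II take electrons from NADH and succinate, complex III passes them on to cytochrome c, complex IV hands them to oxygen, and complex V makes ATP from the proton gradient that complexes I, III and IV build up. In bone, osteoclasts are known for their many mitochondria, whereas chondrocytes in avascular cartilage rely largely on glycolysis.

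The samples came from 8-week-old Sprague Dawley rats with a drilled defect in the distal femur, and RNA was sequenced 2 weeks after surgery. The Hydrogel group had received a scaffold of gelatin methacryloyl hydrogel, the PCL group one of polycaprolactone, a slowly degrading polyester, and the β-TCP group one of β-tricalcium phosphate, a resorbable ceramic. The Control group carried the same defect with no scaffold. Each group had 3 libraries. The paper states that its statistics used at least 3 independent samples per group, but does not say whether each library came from a separate rat. The p-values therefore measure the spread between these libraries, which may be technical in part. In such bulk tissue, fewer cells of a type and less RNA per cell cannot be told apart. Sex was not given in the sources used here. The methods describe newly formed tissue for the Control group and the niche at the scaffold for the others, so what was sampled also differs between scaffold groups and Control.

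Expression was given as FPKM, a fragment count scaled to gene length and to library depth, and the libraries held 15035925 to 17357830 fragments as recovered from the steps of these values. Bone matrix and osteoblast genes were abundant throughout, with a summed 6383 to 26296 FPKM over 13 genes, in keeping with the labelled tissue, bone. Control replicate 3 stood apart: its 20 cartilage genes summed to 14812 FPKM, against 2538 and 2718 FPKM in the other Control libraries and 231 to 1166 FPKM in the 9 scaffold libraries. β-TCP replicates 2 and 3 were nearly alike, with a chi-square per gene of 2.14 between their fragments, against 30.4 to 301 in the 11 other pairs of replicates, and were entered as 2 libraries. Without β-TCP replicate 2 or without replicate 3, the genes called higher in β-TCP than in Control numbered 8 of all genes tested, and 533 with both, so that the adjusted p in β-TCP rests on this pair throughout. Hemoglobin genes held 10.01% to 19.0% of all FPKM in the Hydrogel libraries, 10.7% to 25.8% in PCL, 3.49% to 7.41% in β-TCP and 1.03% to 14.6% in Control.

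The members ranged widely in level. Complex V was the most abundant per gene length, with a median of 189 FPKM over its 15 members (mean of 12 libraries each), led by Atp5b, the catalytic β subunit, at 517 FPKM, and Atp5l, the g subunit of the membrane part, at 339 FPKM. In complex IV, Cox4i1 and Cox6a1, the common forms of subunits 4 and 6A, reached 387 and 275 FPKM. In complex III, Uqcrh, the hinge protein, averaged 237 FPKM and Uqcrfs1, the Rieske iron-sulfur protein, 108 FPKM. Complex II, whose 4 subunits make succinate dehydrogenase, lay between 65.7 FPKM for Sdhc and 97.7 FPKM for Sdhd, both of them membrane anchors. The median over the 38 members of complex I was 58.1 FPKM, with Ndufb9, an accessory subunit, highest at 147 FPKM. Of the 4 assembly factors, the copper chaperone Cox17 averaged 106 FPKM, against 3.29 to 6.60 FPKM for Cox15, Cox10 and Cox11.

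Of the 95 members, 89 had at least 1 FPKM in at least 3 libraries and were tested. The other 6 were Cox7a1, Cox7b2 and Cox8c, which are forms of complex IV subunits known mainly from muscle or testis, and Atp4a, Atp4b and Atp12a, subunits of the potassium-transporting proton pumps of other epithelia. Atp4b, Cox7b2 and Cox8c were listed at 0 in all 12 libraries. No mitochondrially encoded subunit was found in the table, so only the nuclear part of the complexes could be described. The subunits Cox6b1 and Ndufa13 stood in the table under the identifiers LOC688869 and LOC100911483, without the pathway term, at 154 to 242 FPKM and 119 to 174 FPKM. Ndufs6, Ndufa1 and Atp5f1 averaged 0.785, 0.986 and 3.15 FPKM, far under their complexes. Further entries named for the same subunits stood in the table, and most of their values were low too. The entry for Ndufa1 was about as low as Ndufa1 itself, and that for Atp5f1 reached at most 7.765 FPKM. Of the entries for Ndufs6, one stayed at or under 3.165 FPKM and another ranged from 0.494 to 45.8 FPKM. Whether the counting split fragments among such entries was not tested, so these values are uncertain. The values of Ndufa12, Cox11 and Cox15, which also have such entries, are uncertain too, although the further entry for Ndufa12 stayed under 1 FPKM.

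Summed over the 85 members of complexes I to V, expression was higher in every scaffold library than in every Control library. The sums were 8568, 8680 and 8438 FPKM in Hydrogel, 9018, 9145 and 9809 FPKM in PCL and 9878, 9703 and 9610 FPKM in β-TCP, against 7512, 7625 and 6741 FPKM in Control. The means were 8562 ± 121, 9324 ± 425 and 9730 ± 136 FPKM in Hydrogel, PCL and β-TCP, and 7293 ± 481 FPKM in Control (SD, n = 3 each). As a share of all FPKM in the library they made up 1.65% to 1.84% in Hydrogel, 1.723% to 1.90% in PCL and 2.10% to 2.14% in β-TCP, against 1.64% to 1.717% in Control. By share β-TCP and PCL lay above every Control library, PCL by a narrow margin, and Hydrogel overlapped with Control. This order depends on hemoglobin, which the total includes. Scaled to the total of all genes, the median log2 fold changes of the tested members over Control were 0.0305 (Hydrogel), 0.065 (PCL) and 0.27 (β-TCP). With hemoglobin genes left out of the total, they were 0.15, 0.22 and 0.21. The total FPKM per library also differed between groups, from 471043 to 511379 in Hydrogel, 474439 to 569277 in PCL and 457131 to 461918 in β-TCP, against 392539 to 464746 in Control, and it was highest in the library with the most hemoglobin.

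**Figure D1:**
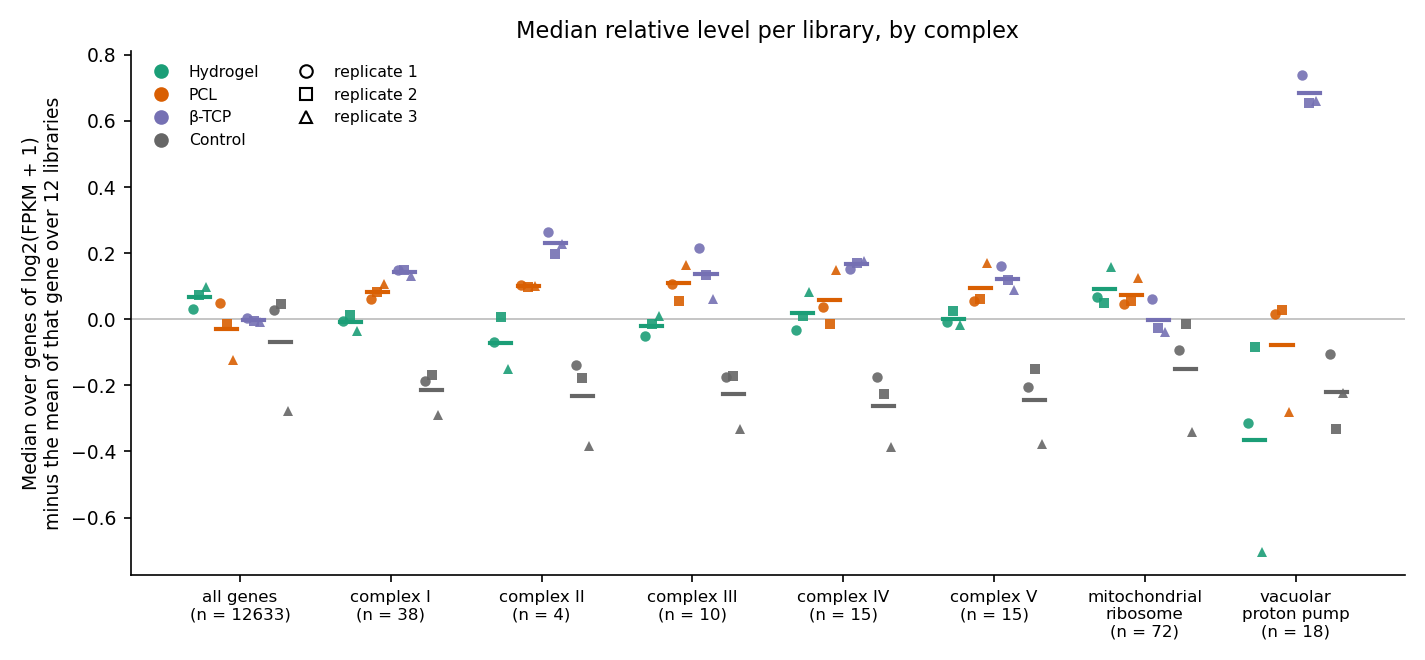
Median over the tested genes of each complex of log2(FPKM + 1), after subtracting the mean of the gene over the 12 libraries, per library (circle, square and triangle for replicates 1, 2 and 3; bars for group means), beside all genes tested and 2 further gene groups. In complexes I, III, IV and V all 3 Control libraries lie below every scaffold library, and in complex II Hydrogel replicate 3 (-0.15) lies between the Control libraries (-0.38 to -0.14), whereas the medians of all genes differ less and Control replicate 3 is alone at -0.28.

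The median difference from Control was small and above 0 in all 5 complexes, while single low-expressed members lay far from it in either direction. On the log2(FPKM + 1) scale, which understates the change of low genes, the median fold change of the 89 tested members was 0.22 in Hydrogel, 0.32 in PCL and 0.35 in β-TCP, against medians of 0.14, 0.04 and 0.03 over all 12633 genes tested. Of the members, 83 lay above 0 in Hydrogel, 80 in PCL and 80 in β-TCP, where 67.3%, 55.4% and 54.2% of all genes did. These 3 comparisons share the Control libraries. How much of the shift was seen depended on the scaling: under 5 other scalings the median of all genes moved to between -0.02 and 0.08 in Hydrogel, -0.17 and 0.01 in PCL and -0.09 and -0.02 in β-TCP. Relative to that median, the members were higher by 0.07 in Hydrogel (0.05 to 0.09 over the scalings), by 0.27 in PCL (0.19 to 0.27) and by 0.33 in β-TCP (0.25 to 0.33). Without Control replicate 3, these relative values were 0.12, 0.34 and 0.35.

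With limma and Benjamini-Hochberg adjustment over all genes tested, 33 members were higher in β-TCP than in Control at an adjusted p under 0.05 and none was lower, where 4.22% of all genes were called higher and 0.562% lower. The 33 comprised 13 of 38 members of complex I, 3 of 4 of complex II, 4 of 10 of complex III, 6 of 15 tested of complex IV, 6 of 15 of complex V, and the assembly factor Cox17. In PCL and in Hydrogel no member passed (0.245% and 0.00792% of all genes were called higher, 0.0317% and 0% lower), with the lowest adjusted p at 0.058 in PCL and 0.31 in Hydrogel, and limma-voom on the recovered fragments gave 0 in both as well, but limma with library weights called 75 members in PCL and 51 in Hydrogel. At an unadjusted p under 0.05, 31 members were higher and 2 lower in Hydrogel (8.62% and 6.37% of all genes), 61 and 2 in PCL (11.1% and 7.34%) and 62 and 2 in β-TCP (14.7% and 3.25%). The libraries did not overlap with Control in 40 members that were higher in Hydrogel, 61 in PCL and 64 in β-TCP, where 9.15%, 10.3% and 17.9% of all genes were so separated, and in 2 members that were lower in each (5.98%, 7.84% and 4.97% of all genes). At a fold change over 2 with an unadjusted p under 0.05, the threshold of the study's methods, 1 member was higher in Hydrogel and 1 in PCL, Cox6a2 in both (0.807% and 2.37% of all genes), and 0 in β-TCP (2.49%). At a fold under 0.5, Cox4i2 and Ndufa4l2 were lower in Hydrogel and in PCL (2 members each; 1.48% and 1.27% of all genes), and Cox4i2 alone in β-TCP (1 member; 1.03%).

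The 33 calls rested on the near-identical pair of β-TCP libraries. Without β-TCP replicate 2, without replicate 3, or with both averaged as 1 library, 0 members passed the adjusted p, although the fold changes hardly moved: Cox6c had a log2 fold change of 0.69 in all libraries and 0.67 to 0.71 over the fits that left out 1 library, with an adjusted p of 0.059 without replicate 2 and 0.062 without replicate 3. Without Control replicate 2 only 8 members passed, 18 without β-TCP replicate 1, 19 without PCL replicate 2 and 20 without Hydrogel replicate 1, where the PCL and Hydrogel libraries entered only through the shared spread. With only the β-TCP and Control libraries in the fit 2 passed, and 4 to 7 under the other scalings.

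**Figure D2:**
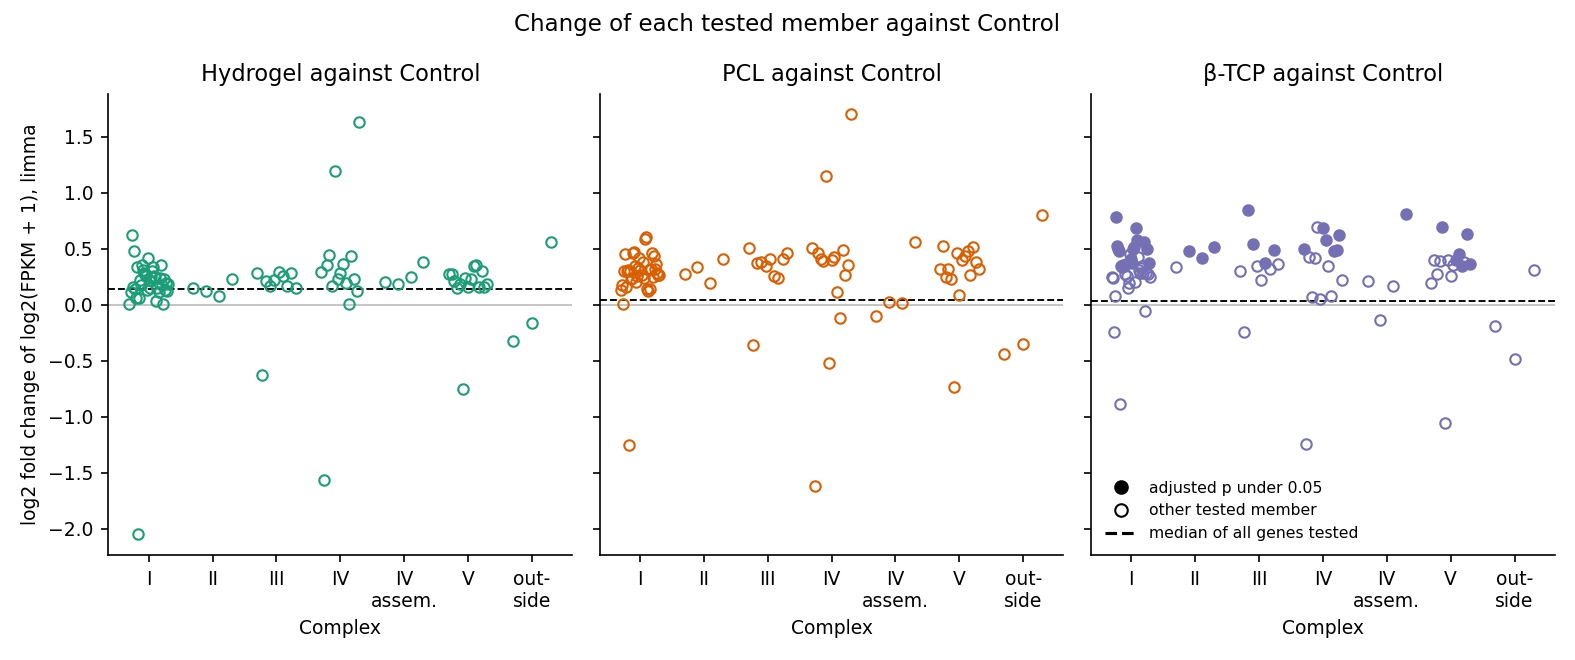
Log2 fold change of each tested member against Control (limma on log2(FPKM + 1), n = 3 libraries per group), by complex, for Hydrogel, PCL and β-TCP. Filled points passed an adjusted p under 0.05 and the dashed line is the median of all genes tested. Filled points occur only in β-TCP (33), most members lie between 0 and 0.85, and a few low-expressed isoforms lie far outside that band.

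Cox6c, a structural subunit of complex IV, gave the lowest adjusted p. It had 287, 298 and 306 FPKM in β-TCP, against 182, 188 and 182 FPKM in Control, with 219, 233 and 221 FPKM in Hydrogel and 239.2, 239.1 and 250.5 FPKM in PCL. The β-TCP libraries were above all 9 others and the Control libraries below all 9 others. The log2 fold change of β-TCP over Control was 0.69 ± 0.08 (SE; limma adjusted p = 0.0055).

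Cox17, which brings copper to complex IV, had 151, 130 and 125 FPKM in β-TCP, against 82.6, 81.2 and 66.1 FPKM in Control. Every β-TCP library was above every Control library. The log2 fold change was 0.81 ± 0.12 (SE; limma adjusted p = 0.012). In Hydrogel the 3 libraries had 94.7, 99.2 and 105 FPKM and in PCL 106, 122 and 110 FPKM, so that all scaffold libraries lay above Control here too, though neither group passed (limma adjusted p = 0.31 and 0.089).

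Uqcr10, a small subunit of complex III, showed the largest rise of the 33 called members in β-TCP. It had 105, 107 and 102 FPKM in β-TCP, against 63.7, 48.0 and 62.7 FPKM in Control, a log2 fold change of 0.85 ± 0.16 (SE; limma adjusted p = 0.021). Hydrogel, with 73.4, 79.1 and 52.1 FPKM, overlapped with Control.

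Atp5e, the ε subunit in the stalk of the ATP synthase, had 423, 443 and 424 FPKM in β-TCP, against 278, 235 and 282 FPKM in Control, a log2 fold change of 0.70 ± 0.12 (SE; limma adjusted p = 0.016). The groups did not overlap, and the Hydrogel libraries (304, 346 and 261 FPKM) and PCL libraries (317, 323 and 293 FPKM) stayed below β-TCP. Atp5l changed alike, with 426, 429 and 413 FPKM in β-TCP, against 283, 283 and 253 FPKM in Control (log2 fold change 0.63 ± 0.10).

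In complex I, Ndufb8, an accessory subunit of the membrane arm, had 164, 159 and 155 FPKM in β-TCP, against 99.7, 96.0 and 101 FPKM in Control, a log2 fold change of 0.69 ± 0.11 (SE; limma adjusted p = 0.014). In PCL it had 127, 151 and 170 FPKM, again above every Control library, with an adjusted p of 0.064. Ndufa12, another accessory subunit, had 27.2, 32.6 and 28.0 FPKM in β-TCP, against 14.2, 18.2 and 17.5 FPKM in Control (log2 fold change 0.78 ± 0.15). Ndufb9 came nearest to the threshold in PCL, with 153, 171 and 191 FPKM, against 122, 111 and 105 FPKM in Control (log2 fold change 0.60 ± 0.11; limma adjusted p = 0.058).

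Of the 4 subunits of succinate dehydrogenase, 3 passed in β-TCP. Sdhd had 116, 114 and 110 FPKM in β-TCP, against 85.7, 81.4 and 70.8 FPKM in Control (log2 fold change 0.52 ± 0.09; limma adjusted p = 0.020). The iron-sulfur subunit Sdhb and the anchor Sdhc also passed, with log2 fold changes of 0.48 and 0.42. The flavoprotein Sdha did not pass (0.34; limma adjusted p = 0.14), although its 94.8, 78.4 and 84.9 FPKM in β-TCP lay above the 73.8, 73.6 and 57.0 FPKM in Control.

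Cox8a, Cox7a2, Ndufb9, Ndufs5 and Uqcr11, accessory subunits of complexes IV, I and III, completed the 12 called members with the largest rise in β-TCP, with log2 fold changes of 0.62, 0.58, 0.58, 0.56 and 0.55. The remaining 21 called members lay between 0.34 and 0.53. Over the fits that left out 1 library, the fold change of each of the 33 stayed above 0.

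**Figure D3:**
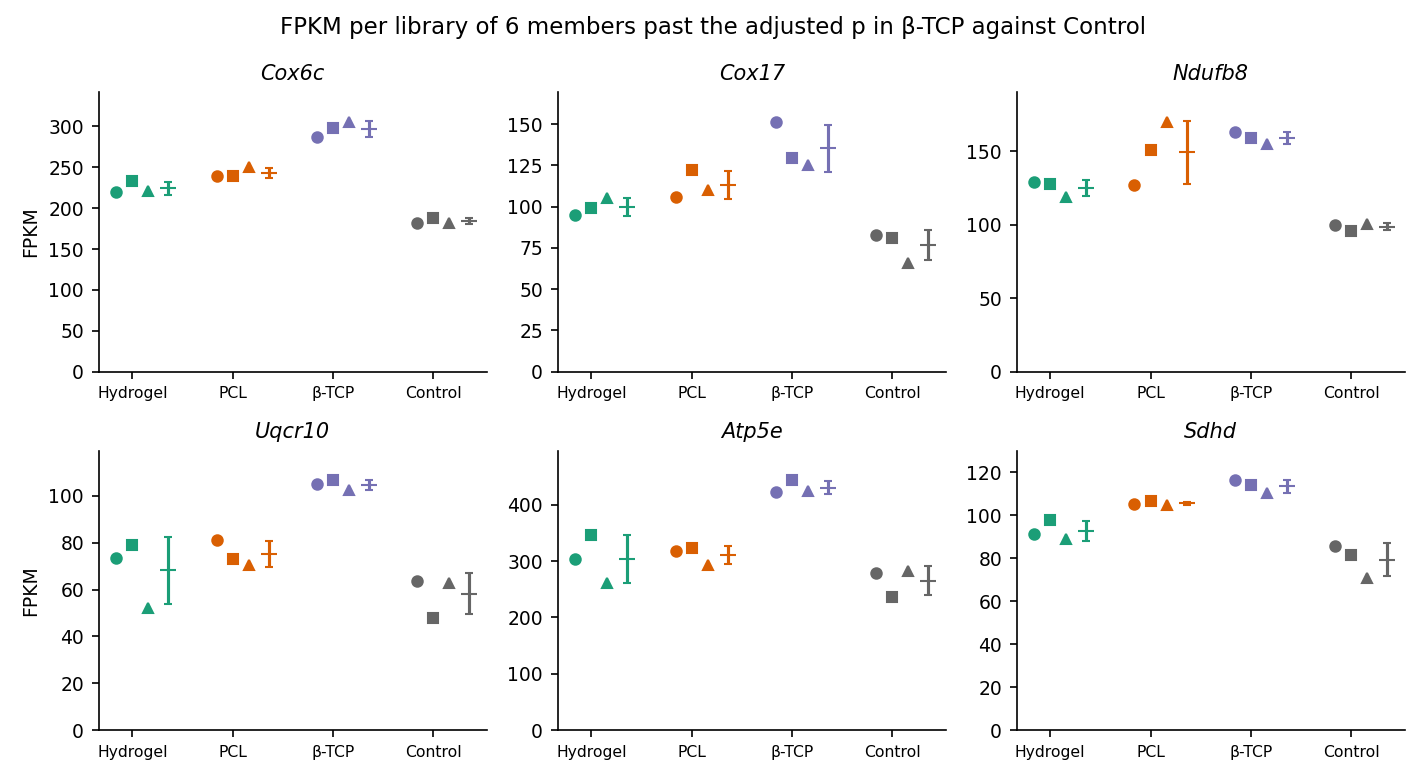
FPKM of 6 members that passed an adjusted p under 0.05 in β-TCP against Control, per library (circle, square and triangle for replicates 1, 2 and 3), with the mean and SD of each group (n = 3). In all 6 the β-TCP libraries lie above the Control libraries, and Hydrogel and PCL lie mostly between them.

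Among core subunits, Ndufs8 and Ndufv2 of complex I, Uqcrc2 of complex III and Sdhb of complex II were called in β-TCP, while 7 other catalytic and core subunits did not pass the adjusted p. For these 7, Ndufs1 and Ndufv1 of complex I, Uqcrc1, Uqcrfs1 and Cyc1 of complex III, and Atp5a1 and Atp5b of complex V, all log2 fold changes were above 0, between 0.20 and 0.40 in β-TCP, with limma adjusted p between 0.13 and 0.53, and 4 of them passed at an unadjusted p under 0.05. In PCL they lay between 0.24 and 0.53, and in Hydrogel between 0.15 and 0.29. Atp5b had 557, 547 and 541 FPKM in β-TCP and 546, 581 and 672 FPKM in PCL, against 431, 486 and 339 FPKM in Control, so that both groups were above Control and overlapped each other. Whether these 7 changed less than the other members was not tested.

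The called members had short genes. A gene length could be computed from the FPKM, the fragments and the library total, and its median was 629 bases for the 33 called members and 1049 bases for the 56 other tested members, against 2884 bases over all genes tested. In Control, short genes as a whole were lower than in the scaffold groups, in a comparison made after the values were seen. Among genes under 1000 bases, the 55 members had a median log2 fold change of 0.23 in Hydrogel, 0.34 in PCL and 0.41 in β-TCP, and all 981 genes of that length had 0.26, 0.26 and 0.16. Between 1000 and 2000 bases, the medians of the 27 members were 0.19, 0.29 and 0.32, and those of 2970 genes 0.17, 0.11 and 0.08. In Hydrogel the members thus lay near genes of their own length, while in β-TCP they lay above them in both classes. Of genes under 1000 bases, 8.97% were called higher in β-TCP, and 28 of the 55 members. The part of length in the shift was not tested.

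**Figure D4:**
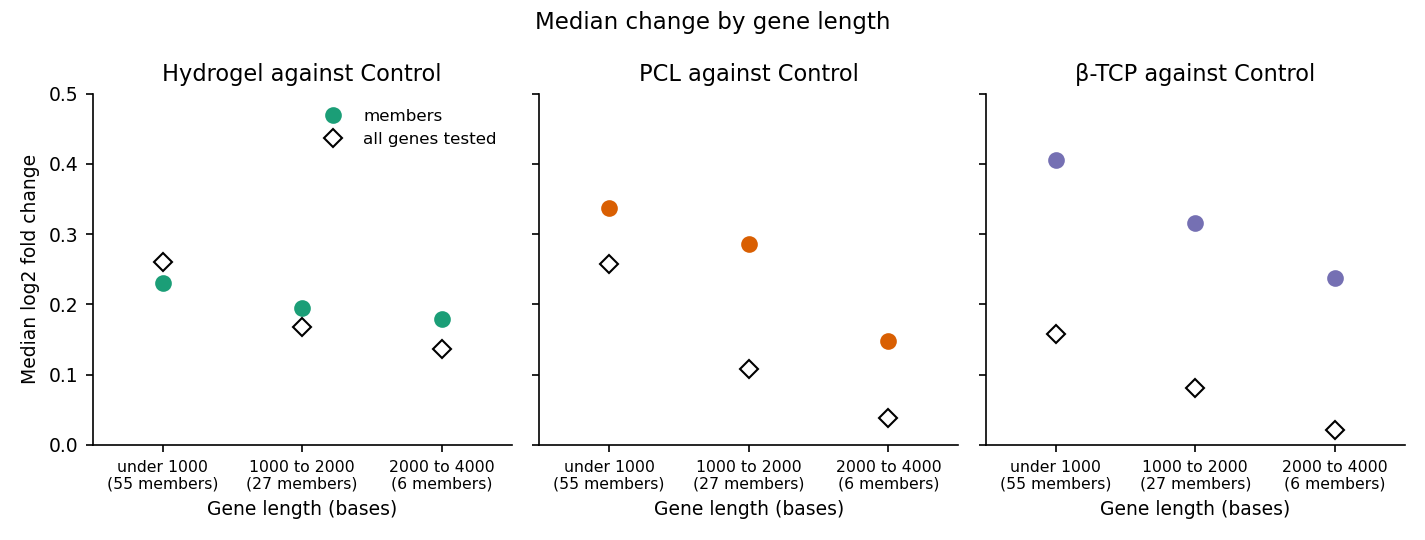
Median log2 fold change against Control of the members (filled circles) and of all genes tested (open diamonds), by gene length in bases, for Hydrogel, PCL and β-TCP. The 2 medians nearly coincide in Hydrogel (0.23 and 0.26 under 1000 bases) and are farthest apart in β-TCP (0.41 and 0.16). Genes over 4000 bases, with 1 member, are left out.

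Among the scaffold groups, β-TCP was higher than Hydrogel for 7 members at an adjusted p under 0.05, where 5.17% of all genes were called higher, and 0 were lower (0.966%). The medians of this comparison were 0.15 over the members and -0.06 over all genes, and 68 of the 89 members lay above 0 (44.9% of all genes). At an unadjusted p under 0.05, 28 members were higher and 1 lower (16.1% and 18.2% of all genes), and the libraries did not overlap in 47 that were higher and 6 that were lower in β-TCP (23% and 34.5%). The 7 were Ndufb5 of complex I, Uqcr10 and Uqcr11 of complex III, Cox6c and Cox8a of complex IV, and Atp5e and Atp5l of complex V, with log2 fold changes between 0.34 and 0.63. Cox8a, the common form of subunit 8, had 242, 256 and 242 FPKM in β-TCP, against 175, 195 and 155 FPKM in Hydrogel, without overlap (log2 fold change 0.50 ± 0.10; limma adjusted p = 0.025). None of the 7 passed without β-TCP replicate 2, without β-TCP replicate 3 or without Hydrogel replicate 3. Of the 7, 1 passed without Hydrogel replicate 1 and 2 without β-TCP replicate 1. Without PCL replicate 1, PCL replicate 2 or Control replicate 1, 3 of the 7 passed. Over all members, 4 passed without Control replicate 1, and 12 and 28 without Control replicates 2 and 3.

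PCL and Hydrogel differed in no member at an adjusted p under 0.05 (0.103% of all genes were called higher and 0% lower), and 7 were higher and 1 lower at an unadjusted p under 0.05 (2.89% and 5.34% of all genes). The member median was 0.11, against -0.06 over all genes, with 71 of 89 above 0 (39% of all genes). The libraries did not overlap in 25 members that were higher and 3 that were lower in PCL (5.09% and 15.4% of all genes). PCL against β-TCP gave 0 calls too (0.0871% of all genes higher and 0.57% lower), with 1 member higher and 12 lower unadjusted (9.34% and 13.1%) and a median of -0.07, against -0.04 over all genes. Of the members 37 lay above 0 (45.5% of all genes), and the libraries did not overlap in 6 that were higher and 28 that were lower in PCL (21.7% and 23.2%). By limma-voom both counts were also 0. Atp5e came nearest here, with a log2 fold change of -0.47 (limma adjusted p = 0.10).

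Not all members followed the majority. Cox4i2, an isoform of subunit 4 that is known to replace Cox4i1 at low oxygen, was lowest in the scaffold groups: it had 5.80, 5.82 and 4.41 FPKM in Hydrogel, 4.84, 5.64 and 4.83 FPKM in PCL and 6.76, 6.88 and 7.04 FPKM in β-TCP, against 10.3, 10.3 and 49.9 FPKM in Control. All 9 scaffold libraries were below all 3 Control libraries, and Control replicate 3 was far above its group. The log2 fold changes were -1.57 in Hydrogel, -1.62 in PCL and -1.24 in β-TCP, and none passed (limma adjusted p = 0.31, 0.16 and 0.17). Without Control replicate 3 they were smaller, -0.84, -0.89 and -0.52, but PCL and β-TCP passed (limma adjusted p = 0.019 and 0.036). Cox4i1, in turn, passed in β-TCP alone (log2 fold change 0.50; limma adjusted p = 0.028), with 377, 367 and 377 FPKM in Hydrogel, 418, 415 and 471 FPKM in PCL and 427, 436 and 433 FPKM in β-TCP, against 333, 322 and 267 FPKM in Control. Of the summed FPKM of both isoforms, Cox4i2 made up 1.15% to 1.56% in Hydrogel, 1.02% to 1.34% in PCL and 1.55% to 1.60% in β-TCP, and 3.02%, 3.09% and 15.8% in Control.

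Ndufa4l2, a relative of Ndufa4 known in human cells as a target of the hypoxia-inducible factor, had 2.72, 5.73 and 3.00 FPKM in Hydrogel, 11.2, 6.41 and 4.90 FPKM in PCL and 6.97, 10.3 and 11.47 FPKM in β-TCP, against 11.4, 10.6 and 48.3 FPKM in Control. Only Hydrogel lay wholly below Control, and the high value was again in Control replicate 3, the library rich in cartilage genes. The log2 fold changes were -2.05, -1.25 and -0.89 in Hydrogel, PCL and β-TCP, none past the adjusted p (0.31, 0.25 and 0.44 by limma), and -1.37, -0.57 and -0.21 without Control replicate 3. Between β-TCP and Hydrogel the log2 fold change was 1.16 (limma adjusted p = 0.14, and 0.016 without Control replicate 3). The part of cartilage in these values was not tested.

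The isoforms Cox6a2 and Cox8b, which are known from heart and skeletal muscle, followed single libraries. Cox6a2 had 5.17, 4.97 and 15.7 FPKM in Hydrogel, 9.93, 5.17 and 7.36 FPKM in PCL and 5.05, 4.59 and 5.54 FPKM in β-TCP, against 5.002, 1.89 and 1.99 FPKM in Control. Cox8b had 1.89, 0 and 9.38 FPKM in Hydrogel, 7.502, 0 and 3.02 FPKM in PCL and 0, 0.579 and 0 FPKM in β-TCP, and was listed at 0 in all 3 Control libraries. The highest values of both were in Hydrogel replicate 3 and PCL replicates 1 and 3. The same libraries had the highest sums over 29 skeletal muscle genes, 685, 460 and 377 FPKM, against 67.9 to 161 FPKM in the 9 others. The part of muscle tissue in these isoforms was not tested. Cox6a2 had log2 fold changes of 1.19 in Hydrogel and 1.15 in PCL that did not pass (limma adjusted p = 0.31 and 0.21). The muscle isoform Cox7a1 stayed under 0.1 FPKM in all 12 libraries.

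**Figure D5:**
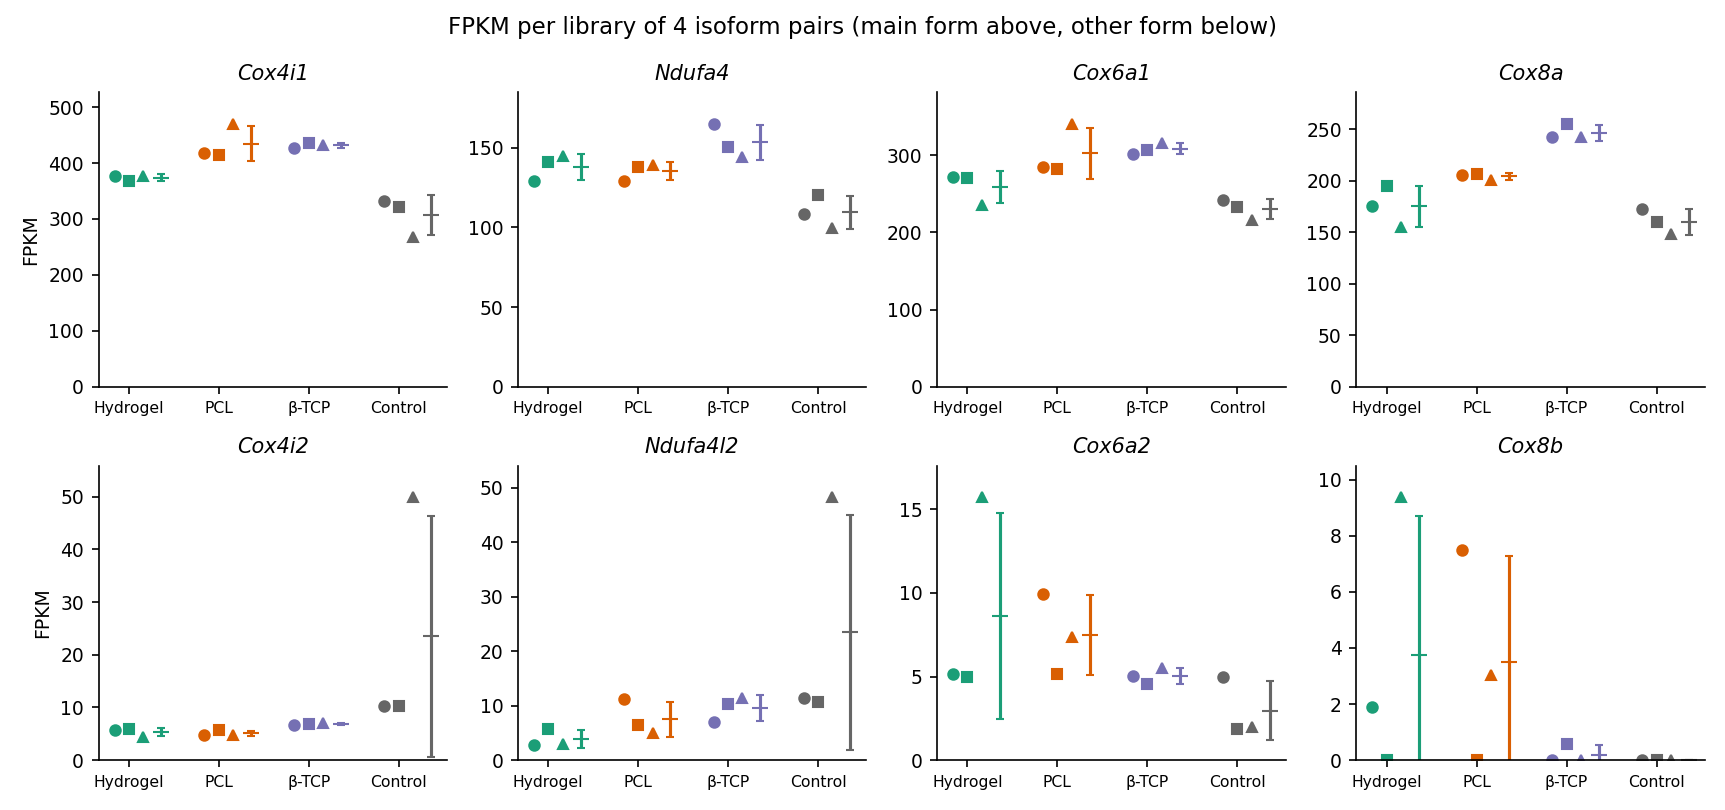
FPKM per library of 4 isoform pairs, the main form in the upper row and the other form below (circle, square and triangle for replicates 1, 2 and 3; mean and SD per group, n = 3, with bars ending at 0 where the SD is larger than the mean). Cox4i2 and Ndufa4l2 are highest in Control replicate 3 (49.9 and 48.3 FPKM), and Cox6a2 and Cox8b in Hydrogel replicate 3 (15.7 and 9.38 FPKM).

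Outside the complexes, the pyrophosphatases Ppa1 and Ppa2 lay on opposite sides of Control, and neither passed. Ppa1, the cytosolic enzyme, had 41.0, 34.6 and 34.9 FPKM in β-TCP, against 43.7, 45.002 and 70.9 FPKM in Control, a log2 fold change of -0.49 (limma adjusted p = 0.17). Ppa2, the mitochondrial enzyme, had 19.8, 19.9 and 23.5 FPKM in PCL, against 11.03, 17.4 and 8.11 FPKM in Control, a log2 fold change of 0.80 (limma adjusted p = 0.13). In both of these comparisons the groups did not overlap and Control replicate 3 lay farthest from the scaffold libraries. In the other scaffold groups each gene overlapped with Control. Lhpp, a phosphatase with 4.11 FPKM on average, overlapped between each scaffold group and Control. Atp5f1, the b subunit of complex V, reached 16.3 FPKM in Control replicate 2 and 1.15 to 3.92 FPKM in the 11 other libraries, so that its log2 fold changes of -0.75, -0.74 and -1.06 in Hydrogel, PCL and β-TCP rested on that library, and were 0.13, 0.14 and -0.18 without it.

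Low-expressed members also made up the remaining extremes. Cox6b2, a form of subunit 6B known from testis, had a log2 fold change of -0.76 between PCL and Hydrogel, with 2.56, 2.27 and 1.13 FPKM in PCL, against 2.89, 4.35 and 4.78 FPKM in Hydrogel (limma adjusted p = 0.59). Ndufa10l1, a relative of Ndufa10, had 4.06, 3.996 and 3.67 FPKM in β-TCP, against 11.97, 7.04 and 5.84 FPKM in Hydrogel, a log2 fold change of -0.86 (limma adjusted p = 0.15). RGD2320734, annotated as similar to subunit 9 of complex III, averaged 0.680 FPKM.

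Across the 12 libraries most members followed 1 profile. The Pearson correlation of a member with the mean of the other members of complexes I to V had a median of 0.81 over the 89 tested members, 59 of which were over 0.7, while the median over all genes was 0.13 and 5.95% were over 0.7. These correlations describe libraries that share their groups, depth and composition. The profile was followed most closely by Cox4i1 (0.96) and Sdhd (0.96), and 10 members were below 0, led by Cox4i2 (-0.79) and Ppa1 (-0.73). Among genes that are not members, the nearest were LOC688869 (0.97), the Cox6b1 entry, Ghitm (0.97), a protein of the inner mitochondrial membrane, and LOC100911483 (0.95), the Ndufa13 entry. In β-TCP against Control the Cox6b1 entry had a log2 fold change of 0.47 and the Ndufa13 entry one of 0.40 (limma adjusted p = 0.025 and 0.038).

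Other mitochondrial gene groups also held called genes in β-TCP against Control, where 4.22% of all genes were called higher. Whether their share differed from that of the members was not tested. In β-TCP against Control, the median over 18 genes of the TCA cycle and pyruvate dehydrogenase was 0.27, with 2 called, Fh and Suclg1, the fumarase and a subunit of succinyl-CoA ligase. Of 10 electron carriers and linked dehydrogenases 3 were called, namely Cycs, cytochrome c (log2 fold change 0.48), and Etfa and Etfb, the electron transfer flavoprotein. Of 6 tested nucleotide carriers and porins 3 were called, Slc25a5, Vdac1 and Vdac2, which exchange ATP and other solutes across the mitochondrial membranes. The 72 tested mitochondrial ribosome genes had a median of 0.13 and 4 calls, near the share of all genes. Their medians were higher in Hydrogel and PCL, at 0.22 and 0.21, where all genes had 0.14 and 0.04. The electron carriers had medians of 0.21 in Hydrogel, 0.28 in PCL and 0.27 in β-TCP. Those of the TCA cycle list were 0.17 in Hydrogel and 0.24 in PCL. None of the calls of these lists in β-TCP, nor those of the Cox6b1 and Ndufa13 entries, remained without β-TCP replicate 2 or without replicate 3. Assembly factors showed single calls, with Sdhaf4 of complex II at 0.90, Uqcc2 of complex III at 0.51 and Tmem126b of complex I at 0.48. These were 1 of 3, 1 of 6 and 1 of 16 tested. Of the further factors tested for complex IV 0 of 14 were called, and 0 of 3 for the ATP synthase. None of the single calls passed without β-TCP replicate 2 or without replicate 3 (limma adjusted p = 0.080 for Sdhaf4 in both fits).

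Of 14 tested regulators of mitochondrial biogenesis, 2 were called higher in β-TCP against Control (4.22% of all genes). Ppargc1b, the coactivator PGC-1β, had 9.24, 6.81 and 7.95 FPKM in β-TCP, against 3.80, 3.42 and 2.54 FPKM in Control (log2 fold change 1.09; limma adjusted p = 0.028). Esrra, a nuclear receptor that binds this coactivator at many respiratory genes, had 28.4, 30.1 and 29.0 FPKM in β-TCP, against 17.7, 16.1 and 14.9 FPKM in Control (log2 fold change 0.81; limma adjusted p = 0.018). Without β-TCP replicate 2 or replicate 3 neither passed, with adjusted p of 0.10 and 0.13 for Ppargc1b and 0.10 and 0.093 for Esrra (limma). The median of this list was -0.04. Tfam, which packs mitochondrial DNA and activates its transcription, overlapped, with 22.9, 19.7 and 19.1 FPKM in β-TCP, against 21.2, 28.9 and 13.9 FPKM in Control.

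Osteoclast genes were also higher in β-TCP. The counts of calls below stand beside 4.22% of all genes called higher and 0.562% called lower in β-TCP against Control. The 13 osteoclast genes summed to 9886 to 10156 FPKM in β-TCP, 2439 to 5439 FPKM in Hydrogel and 3573 to 5209 FPKM in PCL, against 3683 to 5774 FPKM in Control, and 5 of 12 tested were called higher in β-TCP than in Control. Ctsk, the collagen-degrading protease of osteoclasts, had 6920, 6883 and 6866 FPKM in β-TCP, against 3118, 2157 and 3580 FPKM in Control, whereas the fusion protein gene Dcstamp was at 0 in all libraries. Of the vacuolar proton pump genes, by which osteoclasts acidify bone, 14 of 18 tested were called higher, with a median of 0.89. The 15 macrophage genes summed to 4425, 9522 and 9578 FPKM in β-TCP, against 4217, 3153 and 2106 FPKM in Control, with 8 of 14 called higher and Marco at 0 throughout. The part of these cells in the member shift was not tested. Of the 17 tested cartilage genes 8 were called lower in β-TCP, with a median of -3.45. In Hydrogel and PCL 0 were called lower (0% and 0.0317% of all genes), but the medians were alike, at -3.37 and -3.56. Without overlap, 15 of the 17 lay below Control in Hydrogel, 15 in PCL and 16 in β-TCP (5.98%, 7.84% and 4.97% of all genes). Of 15 glycolysis genes 2 were called higher in β-TCP, Aldoa and Pfkp. These 15 genes had a median of 0.35, equal to that of the members, and 13 lay above 0. They summed to 1668, 2271 and 2319 FPKM in β-TCP, so that replicate 1 lay within the 1567, 1548 and 1831 FPKM of Control. Without β-TCP replicate 2, without replicate 3 or with both averaged, 0 genes of the osteoclast, macrophage, vacuolar pump, cartilage and glycolysis lists passed. Osteoclast medians were then 0.84 to 0.85 and vacuolar pump medians 0.90 to 0.92. The glycolysis median fell to between 0.24 and 0.28, while that of the members was 0.36 to 0.37. In Hydrogel and PCL, the medians of erythroid genes (2.07 and 2.48), neutrophil genes (1.89 and 0.99), skeletal muscle genes (1.06 and 1.36) and mitotic genes (1.10 and 0.88) lay above 0, and in Hydrogel also that of B cell genes (1.63), with 0 genes of these lists past the adjusted p in limma. At an unadjusted p under 0.05, 0 of 19 erythroid and 3 of 20 mitotic genes were higher in Hydrogel (8.62% of all genes), and 13 and 2 in PCL (11.1%). Control replicate 3 was low in these cells, with an erythroid sum of 145 FPKM, against 1639 and 2639 FPKM in the other Control libraries. Of 8 tested adipocyte genes 2 were called higher in PCL than in Control (0.245% of all genes), with a list median of 0.0007. In β-TCP 1 was called (4.22%), and 0 without β-TCP replicate 2 or without replicate 3. The adipocyte list summed to 1009 to 1494 FPKM in PCL, against 166 to 451 FPKM in Control. The part of any of these cells in the members' values was not tested.

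Promoter sequences from RefSeq (build GRCr8, 250 bases before to 50 bases after the start of each gene) were found for 83 of the 95 members, and 31 of them held at least 1 of 5 motifs searched with exact letters on both strands. The YY1 motif AAGATGGC was held by 17 of the 83 (20.5%), against 3.17% of all 33469 promoters, and within 30 bases of the start by 14 (16.9%), against 1.53%. The ETS motif CCGGAAGT, the core that GABP binds, was held by 9 (10.8%), against 3.81%, and the NRF1 motif, GCGCA followed by its reverse complement TGCGC, by 4 (4.82%), against 0.852%. The ERR motif TCAAGGTCA, the site of the receptor that Esrra encodes, was held by 2 (2.41%), against 0.433%, and the TATA motif TATAAAA by 3 (3.61%), against 5.96%. No 2 different motifs overlapped in a member. Among the 29 called members with a promoter, 8 held YY1, 2 ETS, 2 NRF1, 1 ERR and 0 TATA. These matches describe letters, not bound sites.

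Shown here are the 7 called members that hold a motif between 100 bases before and 30 bases after the start, and Cox8b, as the muscle counterpart of Cox8a. Each run reads 5′ to 3′ along the strand of the gene, with the motif letters in capitals (YY1 also as GCCATCTT, ETS as ACTTCCGG on the other strand).
Atp5o (chr11:44657454-44657583, minus strand): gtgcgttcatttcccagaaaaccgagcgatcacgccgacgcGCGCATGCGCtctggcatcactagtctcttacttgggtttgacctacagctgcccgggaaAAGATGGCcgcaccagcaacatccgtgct
Atp5i (chr14:1464760-1464889, plus strand): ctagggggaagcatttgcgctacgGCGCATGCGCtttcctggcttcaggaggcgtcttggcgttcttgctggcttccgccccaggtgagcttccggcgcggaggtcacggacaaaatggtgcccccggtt
Ndufa6 (chr7:115750288-115750417, minus strand): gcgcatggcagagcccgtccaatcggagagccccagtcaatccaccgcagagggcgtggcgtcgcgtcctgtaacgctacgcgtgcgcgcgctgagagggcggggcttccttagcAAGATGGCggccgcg
Ndufb8 (chr1:253362907-253363036, minus strand): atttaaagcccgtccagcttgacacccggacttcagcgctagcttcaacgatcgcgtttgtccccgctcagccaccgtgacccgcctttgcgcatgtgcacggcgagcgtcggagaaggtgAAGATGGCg
Sdhc (chr13:86097996-86098125, minus strand): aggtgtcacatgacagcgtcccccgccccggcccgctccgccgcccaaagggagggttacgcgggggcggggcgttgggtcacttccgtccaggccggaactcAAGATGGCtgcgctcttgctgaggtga
Uqcrh (chr5:134790853-134790982, minus strand): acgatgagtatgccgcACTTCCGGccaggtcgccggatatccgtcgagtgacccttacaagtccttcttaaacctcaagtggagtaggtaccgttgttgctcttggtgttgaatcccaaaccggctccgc
Cox8a (chr1:213833594-213833723, minus strand): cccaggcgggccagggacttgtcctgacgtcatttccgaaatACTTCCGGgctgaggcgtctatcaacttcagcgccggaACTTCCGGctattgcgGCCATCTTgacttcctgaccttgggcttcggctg
Cox8b (chr1:205408244-205408373, minus strand): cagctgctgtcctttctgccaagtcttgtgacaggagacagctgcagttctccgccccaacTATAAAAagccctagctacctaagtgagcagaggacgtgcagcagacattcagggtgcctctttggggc
In Atp5o, a stalk subunit of complex V, NRF1 stood before the start and YY1 just after it. In Ndufa6, Ndufb8 and Sdhc, YY1 lay after the start, and in Cox8a it overlay the start behind 2 ETS motifs. The promoter of Cox8b held a TATA motif and none of the other letters in this window.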

How the data were processed

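RNA of 12 bone samples was sequenced by the study. The authors made the deposited FPKM values with Cufflinks, from reads trimmed by Trimmomatic and mapped by HISAT2, 1 column per sample. Rnor_6.0 is the build in the submitters' processing notes, which list StringTie, Bowtie, DESeq and HTSeq too and give no versions. Labels and methods name different extraction and library kits. A further 3 columns of values matched no sample and were not used.

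The 12633 genes that reached 1 FPKM in 3 or more libraries entered the test, on log2(FPKM + 1) with limma 3.58.1 (R 4.3.3; 12 libraries in 1 fit, 4 group means, trended variance) and Benjamini-Hochberg adjustment over all of them, in 6 comparisons. Tables and plots were made with Python 3.11.15, pandas 2.3.3, numpy 2.4.6 and matplotlib 3.10.9. Fragments were recovered from the FPKM steps (all 18684 genes above 0 gave whole numbers within 0.01) and tested with limma-voom, which called 23 members higher in β-TCP than in Control, all of them among the 33, and 5 in β-TCP against Hydrogel. The fitting steps were tested on simulated data.

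The members and gene lists were chosen with earlier results of these data known. Of 289 list symbols, 275 matched by name, 11 by RefSeq identifier and 3 did not match. Named were isoform pairs, catalytic subunits, the called members (12 with the largest change), the 3 largest changes each way, the highest and lowest of each complex, members outside the complexes, and up to 4 called genes of other lists. A further catalytic subunit is not reported here by name. Alternatives were other scalings, pseudocounts, filters, variance models, left-out libraries and a replicate block. Scaling to the total of all genes and the length classes were chosen after seeing the data.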

Additional observations from a re-analysis of the deposited data

How the results depend on the processing

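No called value and no count or median of the members changed direction under the alternatives. Among the uncalled members, Cox4i2, Ndufa4l2, Cox6a2 and Cox8b were followed singly, and 12 of their values changed direction, all in PCL against Hydrogel. Others were not followed singly, but some changed direction too. With β-TCP replicates 2 and 3 averaged, members above 0 went from 80 to 79 in β-TCP against Control and from 37 to 34 in PCL against β-TCP. The uncalled Atp5f1 changed direction without Control replicate 2. The median of all genes did so under other scalings, and so did the members relative to it in PCL against β-TCP (-0.03, but 0.0056 with quantile normalization and 0.052 without PCL replicate 1). Members called in β-TCP against Control (33) numbered 0 with β-TCP replicates 2 and 3 averaged, 2 with only the 2 groups compared, 4 with the total of all genes as scale, 4 without skeletal muscle genes in the total, 5 with quantile normalization, 6 with median-of-ratios scaling, 7 without hemoglobin genes in the total and 72 with library weights. In β-TCP against Hydrogel (7) they numbered 0 with the pair averaged, 3 without hemoglobin, 12 with median-of-ratios, 22 with the 2 groups only and 46 with library weights. Library weights also gave 51 calls in Hydrogel against Control, 75 in PCL against Control, 22 in PCL against Hydrogel and 34 in PCL against β-TCP, where the 2 groups only gave 6. Replicate numbers did not pair the libraries (correlations of same-numbered libraries from -0.612 to 0.469, 4 of 18 over 0.1, and 2 of 12 libraries nearest to their own number), and a replicate block gave 15 calls in β-TCP against Control and 1 in β-TCP against Hydrogel. Leaving out 1 library gave 0 to 1 calls in PCL against Control, 0 to 36 in β-TCP against Control, 0 to 28 in β-TCP against Hydrogel and 0 to 5 in PCL against β-TCP. The median of the members in Hydrogel against Control (0.22) was 0.065 with median-of-ratios, 0.11 with quantile normalization, 0.0305 with the total of all genes and 0.031 without skeletal muscle. In PCL against Control (0.32) it was 0.17 with quantile normalization, 0.065 with the total of all genes, 0.22 without hemoglobin and 0.066 without muscle. In β-TCP against Control (0.35) it was 0.28 with median-of-ratios, 0.22 with quantile normalization, 0.27 with the total, 0.21 without hemoglobin and 0.27 without muscle. In PCL against Hydrogel (0.11) it was 0.063 with library weights, 0.20 with median-of-ratios, 0.047 with the total and 0.047 without muscle. In β-TCP against Hydrogel (0.15) it was 0.23 with median-of-ratios, 0.12 with a pseudocount of 5, 0.11 with quantile normalization, 0.25 with the total, 0.078 without hemoglobin and 0.25 without muscle. In PCL against β-TCP (-0.07) it was -0.032 with median-of-ratios, -0.21 with the total, -0.016 without hemoglobin and -0.21 without muscle. Leaving out 1 library moved these medians to 0.079 to 0.12 in PCL against Hydrogel, 0.12 to 0.16 in β-TCP against Hydrogel and -0.074 to -0.035 in PCL against β-TCP. The causes were not tested. The other values followed were those of single members, counts at other thresholds and sums by complex, and of these 1490 stayed the same and 115 moved. Moved meant a count past a set ratio, a sum past the Control spread, or an uncalled member that changed sign. Single members lost their call in 485 values and gained a call in 16.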
